A study of Homo sapiens with 40 samples.

Results

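The genes described here are 38 genes of the autophagy machinery and its cargo receptors, taken by gene symbol in 6 roles: the initiation complex (5 genes), the class III PI3K complex (4), lipid transfer and PI3P binding (6), the conjugation enzymes (10), the ATG8 family (5), and receptors and adaptors (8). They are 38 of 19775 genes named by a probe set with a single symbol, and all 38 were among the 11865 genes bright enough to be tested. Where a gene had several probe sets, the one with the highest mean signal over the arrays stands for it.

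A2058, an established human melanoma cell line, received a single treatment with a PI3K inhibitor or with the solvent DMSO, and RNA was profiled after 24 hours on 1-colour oligonucleotide arrays. The treated groups were BKM120 at IC30, IC50 and IC90 (max), BEZ235 at IC50, IC90 and max, and GDC0941 (spelled GCD0941 in some labels) at IC50, IC90 and max, and the control group was DMSO. Each of the 10 groups held 4 arrays labelled as biological replicates, 40 arrays in all. The levels are inhibitory concentrations, molar doses were not used here, and compounds are compared below at levels of the same name. All groups share 1 cell line, so p-values measure the spread between samples of that line, and the number of arrays limits the precision. BKM120 and GDC0941 are known as inhibitors of class I PI3K, and BEZ235 as an inhibitor of both PI3K and mTOR.

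Autophagy encloses cytoplasm and organelles in a membrane and delivers them to the lysosome. The ULK1 kinase complex, which active mTOR complex 1 holds back, starts the process, the class III PI3K complex makes the lipid PI3P, WIPI proteins bind it, and linked conjugation reactions attach ATG8 proteins (the LC3 and GABARAP families) to the growing membrane. Receptors such as SQSTM1 and NBR1 hold ubiquitylated cargo and ATG8 proteins together; FOXO and TFE-family factors are known to drive several of these genes. Transcript levels do not measure autophagic flux.

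Signal here is the deposited MAS5 intensity, and changes are differences of mean log2(signal + 16), which understate the change of dim genes. A gene was called, and is said to have risen or fallen, at a Benjamini-Hochberg adjusted p under 0.05 over all genes tested in limma. On 1 array, replicate 3 of BEZ235 at IC50, the ratio of 3' to 5' signal was 3.44 for the GAPDH control and 27.2 for the ACTB control, against 1.05 to 1.26 and 1.58 to 2.33 on the other 39 arrays. Results of BEZ235 at IC50 are therefore given with and without it, and since all groups share an estimate of the spread, results on 39 arrays are added elsewhere where the call differs. The melanoma markers MITF, PMEL, MLANA, TYR, SOX10, S100B and TYRP1 (7 of a list of 8) were bright enough to be tested, and their summed signal was 7842.7 to 11230.2 on treated arrays and 7027.1 to 7456 on DMSO arrays. Of 12 markers of other cell types 4 passed the filter (KRT18, COL3A1, DCN and PECAM1), the list summed to 1231.2 to 1571.3 on BEZ235 arrays, 989.7 to 1190.4 on those of the other compounds and 1094.7 to 1222.4 on DMSO arrays, and its part in the results was not tested. PTPRC, CD3E, VWF, EPCAM and KRT5, which define leukocytes, T cells, endothelium and epithelia, had mean signals of 0.816 to 3.54.

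In each of the 9 treatments more of the 38 genes rose than fell, and on 40 arrays the falls were most numerous with BEZ235, at 7 to 9 a level, against 0 to 6 with the other compounds. Both patterns held over all genes tested, so neither is particular to these genes. Of all genes 18.9%, 23.9% and 24.9% fell with BEZ235 from IC50 to max, against 6.19% to 18.2% with the other compounds. With BKM120, 13 of the 38 genes rose and 0 fell at IC30, where 21.3% of all genes tested were called; 13 rose and 1 fell at IC50, where 19.8% were called; and 12 rose and 3 fell at IC90 (max), where 34.2% were called. With BEZ235, 16 rose and 7 fell at IC50 (45.5% of all genes called), 15 rose and 8 fell at IC90 (55% called), and 15 rose and 9 fell at max (57.7% called). Without the array described above, 16 rose and 9 fell at BEZ235 IC50, 18 of the calls were shared, and 44.3% of all genes were called. With GDC0941, 9 rose and 0 fell at IC50 (16.1% of all genes called), 14 rose and 2 fell at IC90 (25.3% called), and 16 rose and 6 fell at max (43.7% called). At an unadjusted p under 0.05 in limma, 0 members were lower at BKM120 IC30 and at GDC0941 IC50, and 14 and 11 were higher. On 39 arrays the numbers called were larger in every treatment, with 44.3% to 64.5% of all genes called with BEZ235 and 24% to 51.7% with the others: 16, 19 and 19 members with BKM120 from the lowest to the highest level, 25, 29 and 29 with BEZ235, and 13, 22 and 25 with GDC0941. Beyond the genes described below with both values, ATG13 was called in 7 treatments on 39 arrays and 4 on 40, ATG4C in 6 and 4, ATG9A in 5 and 3, ATG101 in 4 and 3, ATG10 in 8 and 7, GABARAPL2 in 6 and 5, and ATG2A in 3 and 1.

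As a share of the 38 genes these calls were 23.7% to 63.2%. At BKM120 IC90 (max) (39.5%), BEZ235 IC90 (60.5%) and BEZ235 max (63.2%) the share was near that of all genes, and the counts there are not a result about these genes. The median log2 change of the 38 was 0.05 to 0.18 over the 9 treatments, and that of all genes tested was -0.00 to 0.04. Across the treatments 20 of the 38 were called only upward, 13 only downward, BNIP3L in both directions and 4 in none; on 39 arrays 24 were called only upward, 10 only downward, BNIP3L and UVRAG in both directions and 2 in none. In bulk RNA, fewer cells of a kind and less RNA per cell cannot be told apart.

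**Figure D1:**
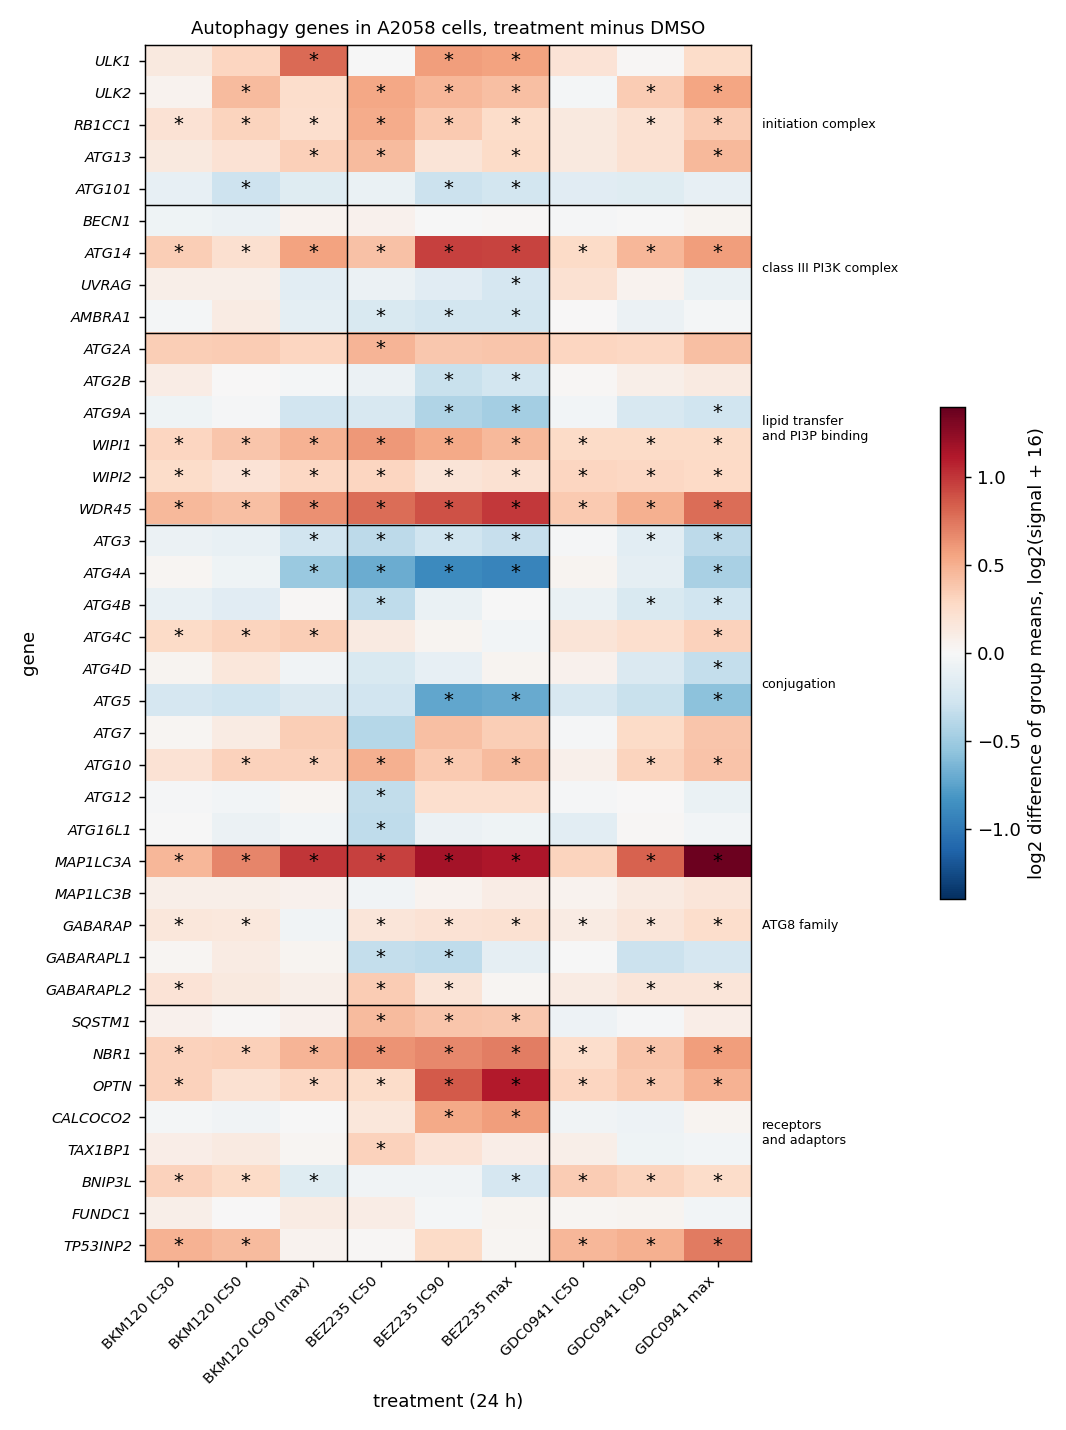
Log2 change against DMSO of the 38 genes (rows, by role) in the 9 treatments (columns), with the colour scale in log2 units and a mark where the adjusted p is under 0.05. WDR45, ATG14, NBR1, WIPI1 and WIPI2 are marked in every column, and the lowest values, down to -0.92, are those of ATG4A with BEZ235.

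ATG14, WIPI1, WIPI2, WDR45 and NBR1 rose in all 9 treatments, 5 of the 38 genes; 2.73% of all genes tested did so, and 0.995% fell in all 9. On 39 arrays 6 rose in all 9, with MAP1LC3A added (4.05% of all genes), and ATG5 fell in all 9 (1.7% of all genes). The bases upstream of the start of the 5 genes are shown because these genes moved together. Those of ATG3, CALCOCO2 and TP53INP2, which hold a searched motif and differed between compounds, follow. GABARAPL1 also holds a motif and differed between compounds, and its bases are left out. Each sequence is the 250 bases before the listed start on the gene's strand, from RefSeq on GRCh38.p14. Of the 2 starts listed for WIPI2, WDR45, NBR1 and TP53INP2 the first is shown. Capitals mark a match, on either strand, to CACGTG (the E-box), GTAAACA (a FOXO motif, TGTTTAC on the other strand) or TGACGTCA (the CRE).
ATG14, chr14:55411831-55412080, minus strand: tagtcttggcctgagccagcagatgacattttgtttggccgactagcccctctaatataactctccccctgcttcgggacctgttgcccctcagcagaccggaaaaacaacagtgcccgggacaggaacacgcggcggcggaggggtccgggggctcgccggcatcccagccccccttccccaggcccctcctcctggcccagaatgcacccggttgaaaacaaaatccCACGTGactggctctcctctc
WIPI1, chr17:68457497-68457746, minus strand: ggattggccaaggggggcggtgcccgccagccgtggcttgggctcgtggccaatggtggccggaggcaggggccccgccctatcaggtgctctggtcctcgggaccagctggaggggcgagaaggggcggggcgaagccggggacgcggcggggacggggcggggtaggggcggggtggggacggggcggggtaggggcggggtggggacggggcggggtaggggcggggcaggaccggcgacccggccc
WIPI2, chr7:5189983-5190232, plus strand: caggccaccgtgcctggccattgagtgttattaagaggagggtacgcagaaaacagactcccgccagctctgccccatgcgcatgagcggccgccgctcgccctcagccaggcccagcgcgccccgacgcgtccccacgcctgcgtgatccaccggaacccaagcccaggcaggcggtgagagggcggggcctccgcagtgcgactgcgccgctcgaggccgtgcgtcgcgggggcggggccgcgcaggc
WDR45, chrX:49101179-49101428, minus strand: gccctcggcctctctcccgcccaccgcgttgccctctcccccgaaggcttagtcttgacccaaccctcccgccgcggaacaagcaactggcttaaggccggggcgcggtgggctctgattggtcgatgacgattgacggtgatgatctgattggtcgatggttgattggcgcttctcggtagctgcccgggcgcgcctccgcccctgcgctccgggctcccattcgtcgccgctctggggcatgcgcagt
NBR1, chr17:43170159-43170408, plus strand: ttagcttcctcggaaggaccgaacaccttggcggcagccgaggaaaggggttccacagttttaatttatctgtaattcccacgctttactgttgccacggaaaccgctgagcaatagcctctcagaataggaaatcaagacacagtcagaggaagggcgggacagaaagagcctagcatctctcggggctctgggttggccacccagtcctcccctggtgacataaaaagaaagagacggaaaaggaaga
ATG3, chr3:112561963-112562212, minus strand: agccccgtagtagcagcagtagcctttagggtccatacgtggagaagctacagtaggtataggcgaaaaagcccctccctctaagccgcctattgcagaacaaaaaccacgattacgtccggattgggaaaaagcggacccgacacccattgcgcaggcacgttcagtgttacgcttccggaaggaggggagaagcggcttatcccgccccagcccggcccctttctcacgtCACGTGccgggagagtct
CALCOCO2, chr17:48830785-48831034, plus strand: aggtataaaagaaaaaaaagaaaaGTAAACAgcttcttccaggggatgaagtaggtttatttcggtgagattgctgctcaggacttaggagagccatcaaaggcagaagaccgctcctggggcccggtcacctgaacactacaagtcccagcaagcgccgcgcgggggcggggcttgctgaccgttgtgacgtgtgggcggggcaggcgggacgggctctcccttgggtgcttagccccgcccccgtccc
TP53INP2, chr20:34704094-34704343, plus strand: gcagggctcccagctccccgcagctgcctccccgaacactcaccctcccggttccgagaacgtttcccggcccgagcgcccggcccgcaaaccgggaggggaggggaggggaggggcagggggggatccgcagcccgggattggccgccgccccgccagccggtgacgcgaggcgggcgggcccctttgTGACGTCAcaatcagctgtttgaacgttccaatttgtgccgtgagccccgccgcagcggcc

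Of the 38 genes 33 had an entry. The E-box, which MITF and TFE factors can bind, was in ATG14 and ATG3 among the 33, and 7.73% of 27305 genes had it in at least 1 window of 250 bases (6.34% of all 35116 windows). The FOXO motif was in CALCOCO2 and in 3.66% of all genes (2.98% of windows), and the CRE was in GABARAPL1 and TP53INP2 and in 2.03% of all genes (1.65% of windows). A match describes letters only: ATG14 rose in every treatment and ATG3 fell in 6, though both hold the E-box.

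In the initiation complex ULK1, the kinase that starts autophagy, was high at the upper levels of BKM120 and BEZ235. Its signals were 154.3, 128, 148.5 and 173 at BKM120 IC90 (max), against 70, 94.5, 88.4 and 69.5 with DMSO, with every treated array above every DMSO array (log2 0.79, SE 0.15, adjusted p = 6.67e-05). It rose with BEZ235 at IC90 (0.59, SE 0.15, adjusted p = 0.00114) and max (0.56, SE 0.15, adjusted p = 0.00175), while the changes with GDC0941 from IC50 to max were 0.19, 0.01 and 0.25, none called. At the levels named IC90 both other compounds exceeded GDC0941, BEZ235 by 0.57 (SE 0.15, adjusted p = 0.00206) and BKM120 by 0.78 (SE 0.15, adjusted p = 9.19e-05).

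ULK2, a related kinase, rose in 6 treatments. Its signals were 343.2, 382.3, 253 and 301.1 at GDC0941 max, against 248.3, 206.6, 210.7 and 184.8 with DMSO, and the groups did not overlap (log2 0.55, SE 0.12, adjusted p = 0.000216). With BEZ235 it rose by 0.54, 0.46 and 0.42 from IC50 to max, and by 0.52 at IC50 without replicate 3. BKM120 gave 0.05, 0.44 and 0.25 from the lowest to the highest level, and only the middle one was called.

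RB1CC1, the scaffold also known as FIP200, rose in 8 treatments by 0.20 to 0.52 (the highest, at BEZ235 IC50, was 0.40 without replicate 3) on a probe set of a cross-hybridising design, and its other probe set was called in 1 of them, BEZ235 IC90 (0.22, adjusted p = 0.00931). ATG13, the adaptor between ULK1 and RB1CC1, had signals of 274.6, 277.7, 272.5 and 283 at GDC0941 max, against 191.4, 217.1, 195.6 and 191.3 with DMSO (log2 0.45, SE 0.08, adjusted p = 4.25e-05). All GDC0941 max arrays were above the DMSO arrays, but the other ATG13 probe sets gave only 0.04 and 0.03 there. At BEZ235 max, where this probe set gave 0.27, the others gave -0.34 and -0.30. At BKM120 IC90 (max) it gave 0.33 and the others -0.08 and -0.08, and the others were not tested singly. ATG101, which stabilises ATG13, fell at BKM120 IC50 (-0.29), BEZ235 IC90 (-0.30) and BEZ235 max (-0.25).

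In the class III PI3K complex 1 gene, ATG14, rose in each treatment. ATG14 directs the complex to the sites where autophagosomes form. Its signals were 697.2, 643.2, 703.6 and 689.9 at BEZ235 max, against 313.6, 340, 364.9 and 370.2 with DMSO, a fold of 1.93 (log2 0.95, SE 0.06, adjusted p = 1.32e-15). Every array of all 9 treatments was above the highest DMSO array. From the lowest to the highest level it rose by 0.34, 0.23 and 0.56 with BKM120, 0.41, 0.95 and 0.95 with BEZ235, and 0.27, 0.47 and 0.59 with GDC0941; BEZ235 at IC50 gave 0.49 without replicate 3. BEZ235 exceeded BKM120 by 0.39 at IC90 (adjusted p = 2.19e-06), and GDC0941 by 0.48 at IC90 (adjusted p = 6.07e-08) and 0.36 at max (adjusted p = 1.44e-05).

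BECN1, the core regulatory subunit, was called in none of the treatments, nor were ATG7, MAP1LC3B and FUNDC1; 17.3% of all genes tested were called in none. BECN1 changed by -0.08 to 0.06 (the highest, at BEZ235 IC50, was -0.01 without replicate 3), with 0 treatments at an unadjusted p under 0.05 in limma, and the 95% intervals of the 9 changes lay between -0.21 and 0.18. AMBRA1, a regulator of the complex, fell with BEZ235 only, by -0.22, -0.26 and -0.25 from IC50 to max, and at IC50 by -0.20 without replicate 3 (adjusted p = 0.024). BEZ235 was below GDC0941 for AMBRA1 at each shared level (-0.22, -0.18 and -0.23, and -0.20 at IC50 without replicate 3); the calls against DMSO at IC50 and max, and these 3, were lost with the mean over its probe sets. UVRAG, the subunit of the endosomal form of the complex, fell at BEZ235 max (-0.23, SE 0.09, adjusted p = 0.0265), and on 39 arrays also at BEZ235 IC50 (-0.21), while it rose at GDC0941 IC50 (0.21, adjusted p = 0.0249).

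The WIPI-family genes rose together. WDR45, also known as WIPI4, had signals of 663.4, 591.6, 711.5 and 656.4 at BEZ235 max, against 347.9, 333.4, 289 and 319.9 with DMSO, a fold of 1.98 (log2 0.99, SE 0.07, adjusted p = 2.07e-14). The treated arrays all lay above the DMSO arrays in each of the 9 treatments. From the lowest to the highest level WDR45 rose by 0.46, 0.42 and 0.64 with BKM120, 0.78, 0.89 and 0.99 with BEZ235, and 0.37, 0.50 and 0.78 with GDC0941; BEZ235 at IC50 gave 0.68 without replicate 3. BEZ235 exceeded GDC0941 at IC50 (0.41, and 0.31 without replicate 3), IC90 (0.39) and max (0.21, adjusted p = 0.0202), and BKM120 at IC50 (0.36, and 0.26 without replicate 3) and IC90 (0.24, adjusted p = 0.00548).

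WIPI1, a PI3P sensor on early autophagic membranes, had signals of 884.4, 826.1, 775.5 and 772.2 at BEZ235 IC90, against 515.1, 582.1, 576 and 565.2 with DMSO (log2 0.53, SE 0.07, adjusted p = 6.13e-08), with no overlap. With GDC0941 its rise was 0.26, 0.26 and 0.27 from IC50 to max, and with BKM120 0.30, 0.38 and 0.48. WIPI2, which recruits ATG16L1, had signals of 1303.4, 1224, 1578.3 and 1278.6 at GDC0941 max, against 1110.8, 1036.8, 1163.9 and 1086 with DMSO (log2 0.28, SE 0.06, adjusted p = 0.000103). Its rise was 0.18 to 0.31 over the treatments (0.25 in place of 0.31 at BEZ235 IC50 without replicate 3). On this probe set none of the 7 differences between compounds was called for WIPI2, and their 95% intervals lay between -0.22 and 0.22. The other WIPI2 probe sets above the filter gave 0.36, 0.76 and 0.76 at GDC0941 max. They gave 0.25, 0.35 and 0.36 at BEZ235 max, and were not tested singly.

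ATG9A, the scramblase of the vesicles that seed the membrane, fell at BEZ235 IC90 (-0.42), BEZ235 max and GDC0941 max (-0.28, adjusted p = 0.0392). Its signals at BEZ235 max were 201.9, 180.3, 143.7 and 141, against 220.7, 244.8, 253.6 and 226.2 with DMSO (log2 -0.48, SE 0.11, adjusted p = 0.000447), all below the DMSO arrays. ATG2B, a lipid transfer protein, fell at BEZ235 IC90 (-0.31, adjusted p = 0.0109) and max (-0.26, adjusted p = 0.0305), where another of its probe sets gave 0.09 and 0.07. ATG2A, of the same function, was dim at 15.2 to 26.2 with DMSO, and its call at BEZ235 IC50 (0.47) was lost without replicate 3 (0.19, adjusted p = 0.355).

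**Figure D2:**
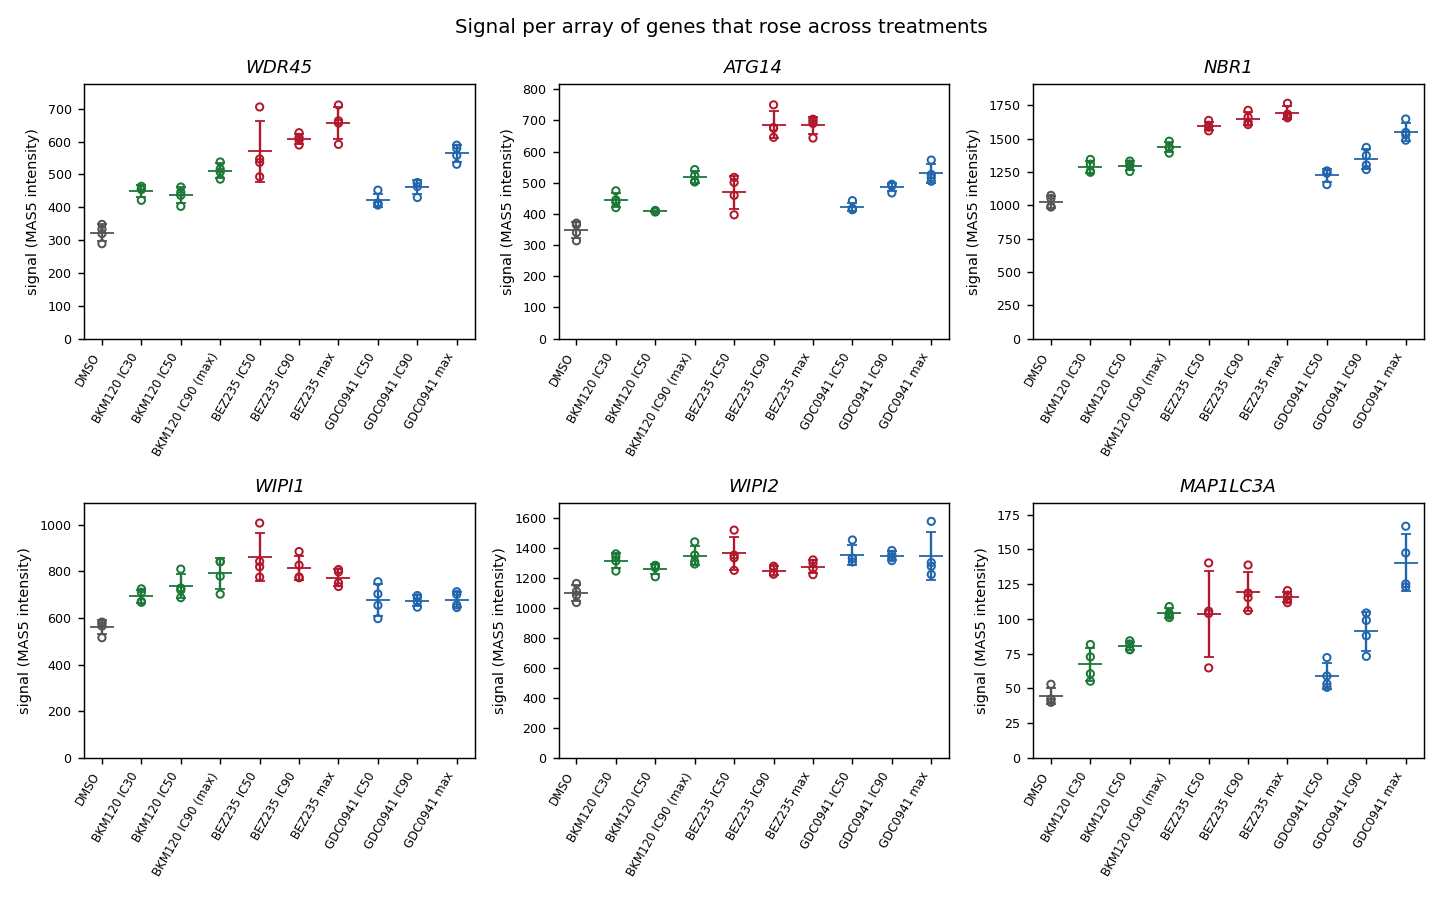
MAS5 signal on each array (points) with the group mean and SD (n = 4) for WDR45, ATG14, NBR1, WIPI1, WIPI2 and MAP1LC3A, from DMSO at the low end through the levels of each compound. The treated arrays of the first 5 genes lie above the DMSO arrays, and MAP1LC3A is highest at GDC0941 max, at 122.9 to 166.6.

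Among the 10 conjugation enzymes ATG4A, ATG3 and ATG5 fell and ATG10 rose at the upper levels of BEZ235 and at GDC0941 max. With BEZ235 5 of the 10 fell at IC50, 3 at IC90 and 3 at max, with 1 that rose at each level, and at GDC0941 max 5 fell and 2 rose. The 40% called at BEZ235 IC90 and max was below the 55% and 57.7% of all genes. At BEZ235 IC50 and GDC0941 max 60% and 70% were called, beside 45.5% and 43.7% of all genes. On 39 arrays 5 fell and 2 rose at BEZ235 IC50 (70% called, beside 44.3% of all genes), with ATG12 and ATG16L1 no longer among the falls. On the same 39, 3 fell and 3 rose at both BEZ235 IC90 and max (60% called, beside 62.5% and 64.5% of all genes). At GDC0941 max 5 fell and 3 rose on them (80% called, beside 51.7% of all genes). ATG4A, a protease that primes ATG8 proteins and releases them from membranes, had signals of 91.1, 93.2, 102.7 and 95.1 at BEZ235 max, against 201.1, 199.2, 172.1 and 208.5 with DMSO, a fold of 0.529 (log2 -0.92, SE 0.09, adjusted p = 2.51e-11). No BEZ235 array of any level reached the lowest DMSO array. It fell at BEZ235 IC50 (-0.69, and -0.75 without replicate 3) and IC90 (-0.89), at BKM120 IC90 (max) (-0.52, adjusted p = 1.26e-05) and at GDC0941 max (-0.46, adjusted p = 4.93e-05).

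At the lower levels ATG4A changed by 0.03 and -0.06 with BKM120 and by 0.03 and -0.13 with GDC0941, none called. BEZ235 was below GDC0941 at IC50 (-0.73, adjusted p = 5.42e-08; -0.78 without replicate 3), IC90 (-0.76, adjusted p = 6.5e-09) and max (-0.46, adjusted p = 5.59e-05). It was below BKM120 at IC50 (-0.63, adjusted p = 1.11e-06; -0.69 without replicate 3) and IC90 (-0.37, adjusted p = 0.000636).

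ATG5, which is joined to ATG12 and helps to attach ATG8 proteins to lipid, had signals of 329.9, 330.1, 317.3 and 298.3 at BEZ235 max, against 524.1, 524.6, 534.3 and 539.6 with DMSO (log2 -0.71, SE 0.13, adjusted p = 1.39e-05). In 8 treatments every treated array was below every DMSO array, and in the other, BEZ235 IC50, replicate 3 read 771.2 beside 326.4 to 385.4. On 40 arrays ATG5 fell at BEZ235 IC90 (-0.72), BEZ235 max and GDC0941 max (-0.57, adjusted p = 0.0004). On 39 arrays its standard error was 0.07 and it fell in all 9 treatments, by -0.21 at BKM120 IC90 (max) (adjusted p = 0.0162), by -0.22 at GDC0941 IC50 (adjusted p = 0.0183) and by -0.53 at BEZ235 IC50 (adjusted p = 4.02e-07). The other ATG5 probe sets gave -0.65 and -0.78 at BEZ235 max. They parted at GDC0941 IC90 (0.06 and -0.37) and at BKM120 IC50 (-0.06 and -0.29), and were not tested singly.

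ATG7, the activating enzyme of both conjugation reactions, read 494, 456.8, 55.4 and 468.9 at BEZ235 IC50, against 387.7, 380.9, 411.7 and 357.4 with DMSO, and the low value was again that of replicate 3. Its SE was 0.29 on 40 arrays, with no call (lowest adjusted p = 0.219). On 39 arrays ATG7 rose in 6 treatments: BKM120 IC90 (max) (0.34, adjusted p = 3.02e-05), BEZ235 IC50 (0.29, adjusted p = 0.000742), IC90 (0.42, adjusted p = 4.87e-07) and max (0.34, adjusted p = 1.21e-05), and GDC0941 IC90 (0.27, adjusted p = 0.00103) and max (0.38, adjusted p = 3.64e-06). Its signals at GDC0941 max were 495.8, 521.2, 501.4 and 505.1, all above the DMSO arrays. The other ATG7 probe sets, all above the filter, did not show this rise. They gave -0.13, -0.003 and -0.13 at GDC0941 max, and 0.03, 0.03 and -0.39 at BEZ235 max. At BKM120 IC90 (max) they gave -0.08, 0.08 and -0.22, and they were not tested singly.

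ATG12, the ubiquitin-like partner of ATG5, read 590.4, 620.4, 274.8 and 620.9 at BEZ235 IC50, against 645.3, 622.8, 656 and 632.4 with DMSO. The fall there (log2 -0.34, SE 0.12, adjusted p = 0.0216) was lost without replicate 3 (-0.06, adjusted p = 0.325). ATG12 signals were 692, 769.5, 811.4 and 755.3 at BEZ235 max, above all DMSO arrays, and the change of 0.24 was not called on 40 arrays (adjusted p = 0.0953) and was called on 39 (adjusted p = 4.83e-05). The other ATG12 probe sets parted, with -0.16 and 0.36 at BEZ235 max and -0.18 and 0.25 at BEZ235 IC90. They were not tested singly. ATG16L1, which places the ATG5 and ATG12 pair on the membrane, had its 1 call at BEZ235 IC50 (-0.35, adjusted p = 0.0172), also lost without replicate 3 (-0.13, adjusted p = 0.219).

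ATG3, the conjugating enzyme of ATG8 proteins, had signals of 660, 657.5, 693.6 and 669.5 at GDC0941 max, against 867.3, 884.5, 801.4 and 921.3 with DMSO (log2 -0.37, SE 0.05, adjusted p = 3.9e-08). The treated arrays were all lower. ATG3 also fell with BEZ235 by -0.37, -0.27 and -0.32 from IC50 to max (-0.34 at IC50 without replicate 3), at BKM120 IC90 (max) (-0.27) and at GDC0941 IC90 (-0.15, adjusted p = 0.0135). ATG10, the conjugating enzyme of ATG12, moved the other way: its signals were 120.8, 125.5, 139 and 131.6 at BEZ235 max, against 89.7, 95.1, 87.5 and 91.4 with DMSO (log2 0.44, SE 0.08, adjusted p = 1.3e-05). No treated array there was as low as a DMSO array, and ATG10 rose in 7 treatments, by 0.31 to 0.49 (the highest, at BEZ235 IC50, was 0.41 without replicate 3).

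Of the other ATG4 proteases, ATG4C rose where it was called, and ATG4B and ATG4D fell. ATG4C rose with BKM120 by 0.27, 0.31 and 0.34 from the lowest to the highest level and at GDC0941 max (0.32, adjusted p = 0.00598). BEZ235 gave 0.13, 0.04 and -0.04 from IC50 to max, none called, and -0.04 at IC50 without replicate 3. BEZ235 was below GDC0941 for ATG4C at max (-0.36, SE 0.09, adjusted p = 0.00254) and below BKM120 at IC90 (-0.30, adjusted p = 0.009). ATG4B fell at BEZ235 IC50 (-0.36, and -0.34 without replicate 3), GDC0941 IC90 (-0.21) and GDC0941 max (-0.28) on a probe set of a cross-hybridising design, and the probe set of another design gave 0.02, -0.02 and -0.06, none called. ATG4D fell at GDC0941 max only on 40 arrays, with signals of 165.8, 112.4, 161.5 and 145.1, against 181.9, 205.1, 192.6 and 168 with DMSO (log2 -0.33, SE 0.10, adjusted p = 0.00519), and on 39 arrays also at BEZ235 IC50 (-0.28, adjusted p = 0.0206).

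**Figure D3:**
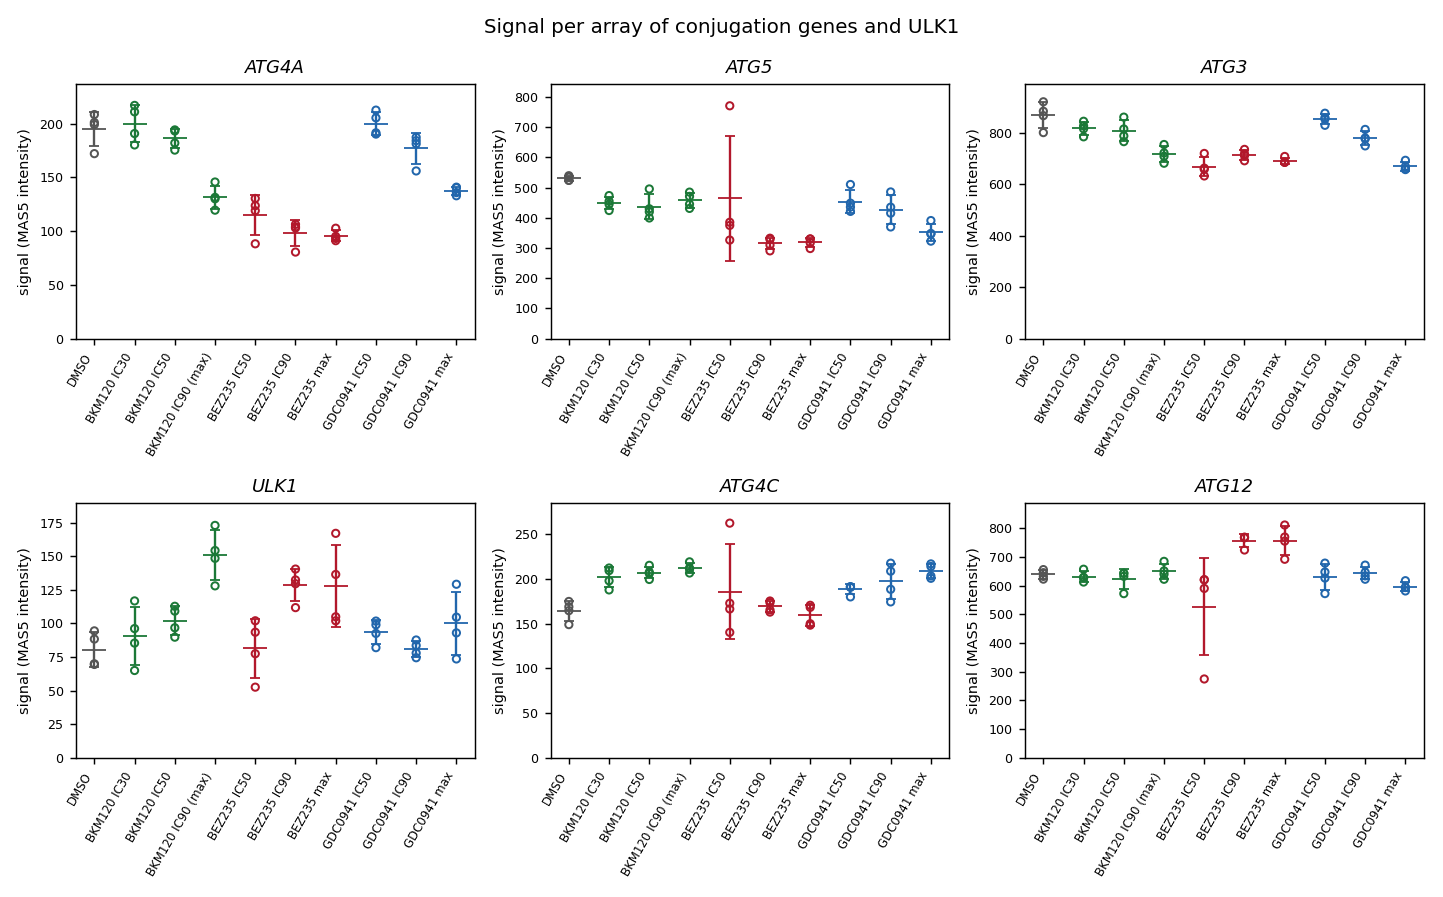
MAS5 signal on each array (points) with the group mean and SD (n = 4) for ATG4A, ATG5, ATG3, ULK1, ATG4C and ATG12, from DMSO at the low end through the levels of each compound. ATG4A is at or below 130.4 on all BEZ235 arrays, and replicate 3 of BEZ235 IC50 stands away from its group in ATG5 (771.2) and ATG12 (274.8).

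In the ATG8 family, whose members tether cargo and membrane, MAP1LC3A had the largest change of the 38 genes against DMSO. Its signals were 166.6, 125.1, 147.4 and 122.9 at GDC0941 max, against 42, 52.9, 39.9 and 42.3 with DMSO, a fold of 2.59 (log2 1.37, SE 0.13, adjusted p = 3.51e-11). The groups were well apart there and overlapped in 1 treatment, GDC0941 IC50. From the lowest to the highest level the change was 0.46, 0.68 and 1.00 with BKM120, 0.95, 1.17 and 1.13 with BEZ235, and 0.31, 0.82 and 1.37 with GDC0941, each called but the 0.31 (adjusted p = 0.101; on 39 arrays 0.0434). At BEZ235 IC50 it was 0.81 without replicate 3 (adjusted p = 1.08e-06). The probe set is of a cross-hybridising design, and the one of another design gave 1.51 at GDC0941 max and lost 1 call, at BKM120 IC30 (0.33, adjusted p = 0.0731).

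MAP1LC3B, the LC3 protein most used to follow autophagy, was bright and changed little. Its signals were 1438, 1535.7, 1583.8 and 1627 at GDC0941 max, against 1352.3, 1298.9, 1450.2 and 1397.3 with DMSO, with overlap (log2 0.17, SE 0.07, adjusted p = 0.0559). The 95% intervals of its 9 changes lay between -0.20 and 0.31, and at BEZ235 IC50 the change was -0.05, or 0.09 without replicate 3 (adjusted p = 0.0789). On 39 arrays it rose at GDC0941 max (0.17, adjusted p = 0.000548), GDC0941 IC90 (0.12, adjusted p = 0.0142) and BEZ235 max (0.11, adjusted p = 0.018). The other MAP1LC3B probe set did not show these rises. It gave -0.01 at GDC0941 max, 0.01 at GDC0941 IC90 and -0.29 at BEZ235 max, and was not tested singly.

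GABARAP, which acts late in closure and fusion, rose in 8 treatments by small amounts. Its signals were 2025.2, 2030, 2278 and 2107.7 at GDC0941 max, against 1813.4, 1759.3, 1823 and 1731 with DMSO (log2 0.24, SE 0.04, adjusted p = 4.86e-06), with no overlap. The exception was BKM120 IC90 (max), at -0.05, which lay below both other compounds at IC90: BEZ235 minus BKM120 was 0.25 (adjusted p = 2.26e-06) and BKM120 minus GDC0941 was -0.22 (adjusted p = 2.68e-05). Quantile normalization removed the GABARAP calls at BEZ235 IC50, BKM120 IC30 and GDC0941 IC50. GABARAPL2, a close relative, rose in 5 treatments, by 0.17 to 0.36, and by 0.28 at BEZ235 IC50 without replicate 3.

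GABARAPL1, another relative, fell at BEZ235 IC90. Its signals were 153.5, 178.6, 187.2 and 201 at BEZ235 IC90, against 209.4, 224.4, 211.3 and 301 with DMSO, with no overlap (log2 -0.36, SE 0.12, adjusted p = 0.0151). It fell at BEZ235 IC50 as well (-0.34, adjusted p = 0.0254), a call lost without replicate 3 (-0.31, adjusted p = 0.0509). At BEZ235 max the change was -0.13 and not called, and its signals, 174.2 to 245.3, overlapped those with DMSO. It fell on 39 arrays at GDC0941 IC90 (-0.30, adjusted p = 0.0499).

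Among the receptors, NBR1 rose in all 9 treatments, SQSTM1 rose at each level of BEZ235 and CALCOCO2 at its upper levels. NBR1, a receptor for ubiquitylated cargo and peroxisomes, had signals of 1666.4, 1655.2, 1682.4 and 1764.1 at BEZ235 max, against 986, 1051.4, 1073.6 and 992 with DMSO (log2 0.71, SE 0.04, adjusted p = 6.42e-17). Every treated array of the study was above the highest DMSO array. From the lowest to the highest level it rose by 0.32, 0.33 and 0.48 with BKM120, 0.63, 0.68 and 0.71 with BEZ235, and 0.25, 0.38 and 0.59 with GDC0941, and by 0.63 at BEZ235 IC50 without replicate 3. BEZ235 exceeded GDC0941 at IC50 (0.38 with and without replicate 3), IC90 (0.29) and max (0.12, adjusted p = 0.0185), and BKM120 at IC50 (0.29, and 0.30 without replicate 3) and IC90 (0.20, adjusted p = 0.00017). The last difference turned to -0.65 with the mean over NBR1 probe sets, 2 of which are described at the end.

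SQSTM1, the receptor also known as p62, had signals of 1292.6, 1374.2, 1354.4 and 1518.2 at BEZ235 max, against 1083, 1041.9, 1080.6 and 1052.3 with DMSO (log2 0.37, SE 0.07, adjusted p = 2.19e-05). All 4 were above the DMSO arrays. With BEZ235 it rose by 0.45, 0.39 and 0.37 from IC50 to max (0.34 at IC50 without replicate 3), and with the other compounds it changed by -0.07 to 0.09, none called. The difference of BEZ235 from GDC0941 was 0.52, 0.40 and 0.28 at IC50, IC90 and max, and from BKM120 0.44 and 0.34 at IC50 and IC90, each called (adjusted p of 0.00139 or less). Without replicate 3 the differences at IC50 were 0.41 and 0.32, both called. The brightest of the other SQSTM1 probe sets gave 0.19 and 0.14 at BEZ235 IC90 and max. It gave -0.45 at BKM120 IC90 (max) and -0.25 at GDC0941 IC90. The dimmer ones above the filter gave 0.32 and 0.40 at BEZ235 max and -0.09 and -0.11 at BKM120 IC90 (max). None of these was tested singly.

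CALCOCO2, the receptor also known as NDP52, stood apart at the upper levels of BEZ235. Its signals were 717.7, 723.4, 734.3 and 764.3 at BEZ235 max, against 459.1, 494.5, 481 and 505.4 with DMSO, with no overlap (log2 0.58, SE 0.08, adjusted p = 6.44e-08). It rose by 0.53 at BEZ235 IC90, was at 0.15 at BEZ235 IC50 (adjusted p = 0.107; 0.01 without replicate 3), and lay between -0.07 and 0.04 with the other compounds. BEZ235 exceeded GDC0941 by 0.60 at IC90 (adjusted p = 9.03e-08) and 0.54 at max (adjusted p = 7.57e-07), and BKM120 by 0.54 at IC90 (adjusted p = 6.22e-07). Another CALCOCO2 probe set above the filter gave smaller rises, 0.20 and 0.24 at BEZ235 IC90 and max. It gave -0.38 at BKM120 IC30 and -0.16 at GDC0941 max, and was not tested singly.

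OPTN, a receptor for damaged mitochondria and bacteria, had signals of 824, 687.7, 774 and 789 at BEZ235 max, against 361.6, 312.2, 333.1 and 381.5 with DMSO, a fold of 2.16 (log2 1.11, SE 0.09, adjusted p = 2.03e-13). The 2 groups were far apart, and OPTN also rose at BEZ235 IC90 (0.86). At BEZ235 IC50 the rise was 0.26 (adjusted p = 0.016), a call lost without replicate 3 (0.15, adjusted p = 0.132). GDC0941 gave 0.30, 0.37 and 0.49 from IC50 to max, each called, and BKM120 0.32, 0.22 and 0.29, the middle one not called (adjusted p = 0.0757; on 39 arrays 0.022). TAX1BP1, a receptor that binds ubiquitin, rose on 40 arrays at BEZ235 IC50 only, by 0.33 (adjusted p = 0.00183), and on 39 arrays in 5 treatments, by 0.10 to 0.19, with 0.14 at BEZ235 IC50 (adjusted p = 0.00403).

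The mitochondrial receptor BNIP3L, also known as NIX, was called in both directions on 40 and on 39 arrays. Its signals were 600, 588.7, 611.3 and 577.9 at BEZ235 max, against 753, 706.8, 672.5 and 670.9 with DMSO, all lower (log2 -0.23, SE 0.06, adjusted p = 0.00267). At GDC0941 max they were 844.8, 836.9, 841.1 and 846.5, all above the same DMSO arrays (log2 0.26, SE 0.06, adjusted p = 0.00116). BKM120 gave 0.33 and 0.27 at IC30 and IC50 and -0.17 at IC90 (max) (adjusted p = 0.0449), each called, and GDC0941 gave 0.35, 0.32 and 0.26. BEZ235 was below GDC0941 by -0.41, -0.37 and -0.49 at IC50, IC90 and max, and by -0.31 at IC50 without replicate 3. The other BNIP3L probe set gave only -0.03 at BEZ235 max and 0.06 at GDC0941 max. With BKM120 it gave 0.32 at IC30 and -0.16 at IC90 (max), and it was not tested singly. FUNDC1, another mitochondrial receptor, changed by -0.03 to 0.12, with no call on 40 arrays and 1 on 39, at BKM120 IC90 (max) (0.12, adjusted p = 0.0325).

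TP53INP2, an adaptor that binds ATG8 proteins, had signals of 755.5, 793.4, 826.1 and 867.4 at GDC0941 max, against 505.5, 475.6, 473.2 and 479.7 with DMSO (log2 0.73, SE 0.12, adjusted p = 3.49e-06), with no overlap. It rose with GDC0941 by 0.46, 0.50 and 0.73 from IC50 to max, and with BKM120 by 0.48 and 0.44 at IC30 and IC50, but at IC90 (max) BKM120 gave 0.04, not called. BEZ235 max gave 0.03, and BEZ235 was below GDC0941 there by -0.69 (SE 0.12, adjusted p = 9.35e-06). At BEZ235 IC50 replicate 3 read 283.7 beside 558.1 to 642, and the change was 0.02 with it and 0.27 without it (adjusted p = 0.000473). The change of 0.27 at BEZ235 IC90 was called on 39 arrays only (adjusted p = 8.86e-05).

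**Figure D4:**
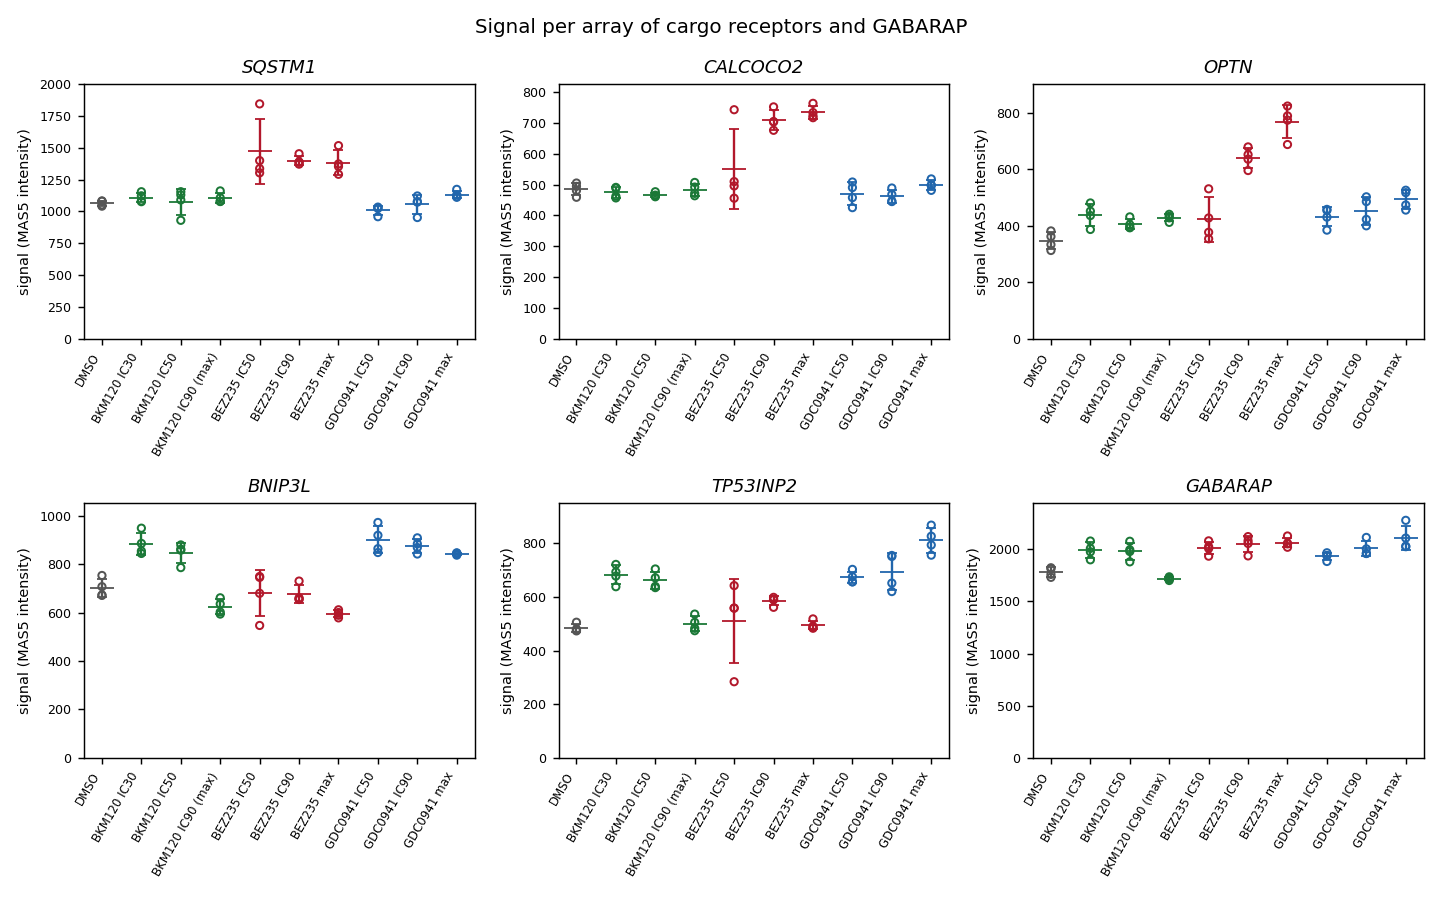
MAS5 signal on each array (points) with the group mean and SD (n = 4) for SQSTM1, CALCOCO2, OPTN, BNIP3L, TP53INP2 and GABARAP, from DMSO at the low end through the levels of each compound. CALCOCO2 is at 676.7 to 764.3 at BEZ235 IC90 and max, and BNIP3L is at 577.9 to 611.3 at BEZ235 max and 836.9 to 846.5 at GDC0941 max.

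Set directly against each other at levels of the same name, BEZ235 differed from both other compounds in many of the 38 genes. Against BKM120 at IC50, 9 were higher and 8 lower with BEZ235 (32.1% of all genes called), and without replicate 3 it was 5 and 11 (30.7%). Against GDC0941 at IC50 12 were higher and 10 lower (34.1% of all genes), and 12 and 11 without replicate 3 (33.6%). At IC90, BEZ235 against BKM120 gave 7 higher and 6 lower (45.1% of all genes) and BEZ235 against GDC0941 10 higher and 6 lower (42.9%), and at max BEZ235 against GDC0941 gave 10 and 6 (36.5%). Comparisons at the same level share BEZ235 arrays. The members' shares at IC90, 34.2% and 42.1%, were near or below those of all genes.

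BKM120 and GDC0941 differed in 1 gene at IC50, where 0.598% of all genes were called: ULK2 was higher with BKM120, at 258.8, 302.4, 308.8 and 301.6, against 221.8, 205, 218.6 and 184.3 with GDC0941 (log2 0.47, SE 0.12, adjusted p = 0.0493). The arrays did not overlap, and the call was lost under 4 of 10 other settings. The 95% intervals of the 38 differences at IC50 lay between -0.45 and 0.71. At IC90, 4 genes were higher and 5 lower with BKM120 than with GDC0941 (29.9% of all genes called): ULK1, GABARAPL1, WIPI1 and ATG4B higher, and BNIP3L (-0.48), TP53INP2 (-0.46), ATG4A (-0.39), GABARAP (-0.22) and ATG3 (-0.12) lower.

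Within a compound, the highest level against the lowest gave 6 higher and 6 lower with BKM120 (34% of all genes called), 9 and 6 with BEZ235 (39.1%), and 9 and 5 with GDC0941 (29.6%). As a share of the 38 genes these calls were 31.6%, 39.5% and 36.8%, and those with BKM120 and BEZ235 were near or below the share of all genes. On 39 arrays the counts were 8 and 6 (42.4% of all genes called), 9 and 5 (39.4%), and 14 and 8 (39.4%). Higher in each of the 3 were ATG14 (0.22, 0.54 and 0.32 in the order BKM120, BEZ235, GDC0941) and WDR45 (0.18, 0.21 and 0.41), and lower in each was ATG4A (-0.55, -0.22 and -0.49; without replicate 3 the BEZ235 value was -0.17, not called). Without replicate 3 the BEZ235 values were 0.46 for ATG14 and 0.31 for WDR45, and MAP1LC3A was also higher with BEZ235 (0.32, adjusted p = 0.0351; 0.18 and not called with it), beside 0.54 with BKM120 and 1.07 with GDC0941. OPTN differed most between levels of BEZ235 (0.85, adjusted p = 7.7e-10; 0.97 without replicate 3) and MAP1LC3A between those of GDC0941 (1.07, adjusted p = 4.25e-08).

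An interaction term compared the change between IC50 and IC90 in 1 compound with that in another. It differed between BEZ235 and BKM120 in 11 genes, 7 more positive and 4 more negative with BEZ235 (24.5% of all genes called), and on 39 arrays in 12 (29.1%). Between GDC0941 and BKM120 it differed in 4 (19.2% of all genes called), and between BEZ235 and GDC0941 in 8 (9.81% called), or 9 on 39 arrays (13.8%). OPTN took the larger step with BEZ235 than with GDC0941 (0.54, SE 0.12, adjusted p = 0.0043) and than with BKM120 (0.52, SE 0.12, adjusted p = 0.00177), and so did CALCOCO2 (0.40, adjusted p = 0.0164, and 0.33, adjusted p = 0.0272). Without replicate 3 these were 0.65 and 0.63 for OPTN and 0.55 and 0.48 for CALCOCO2, each called.

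Lists of other genes of the pathway, chosen like the members with earlier results known, are given by their counts, beside the shares of all genes above. Of 18 other core and fusion genes tested, 7 rose and 4 fell at BEZ235 max, 1 and 1 at BKM120 IC90 (max), and 3 and 3 at GDC0941 max. In this order 61.1%, 11.1% and 33.3% were called, beside 57.7%, 34.2% and 43.7% of all genes. These shares were near or below those of all genes. SNAP29, a SNARE of autophagosome and lysosome fusion, averaged 587 ± 64.9 at BEZ235 IC90 and 333 ± 39.8 with DMSO (SD, n = 4 each; log2 0.79, adjusted p = 7.01e-09), and it was not called with BKM120 or GDC0941. STX17, its partner SNARE, rose in 7 treatments, by up to 0.60 at BEZ235 max. EI24, a membrane protein of the pathway, fell at BEZ235 IC90 and max (-0.51 at both) and at BKM120 IC90 (max) (-0.17).

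Of 16 other selective receptors tested, 8 rose and 1 fell at BEZ235 max, 3 and 3 at BKM120 IC90 (max), and 7 and 2 at GDC0941 max. In this order 56.2%, 37.5% and 56.2% were called, beside 57.7%, 34.2% and 43.7% of all genes. The shares at BEZ235 max and BKM120 IC90 (max) were near those of all genes. CALCOCO1, a relative of CALCOCO2 that serves the endoplasmic reticulum, averaged 167 ± 10.5 at BEZ235 IC90 and 63 ± 1.72 with DMSO (SD, n = 4 each; log2 1.21, adjusted p = 2.49e-16), and rose in all 9 treatments. BNIP3, the close relative of BNIP3L, averaged 710 ± 32.4 at BKM120 IC90 (max) and 1252 ± 47.3 with DMSO (log2 -0.80, adjusted p = 1.97e-08), and fell in all 9, where BNIP3L rose in 5. PINK1, the kinase that marks damaged mitochondria, rose at every level of BKM120 and GDC0941 by 0.34 to 0.60, and was at 0.12 to 0.21 with BEZ235, not called.

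Of 17 upstream kinases and transcription factors tested, 9 rose and 3 fell at BEZ235 max, 3 and 1 at BKM120 IC90 (max), and 9 and 1 at GDC0941 max. In this order 70.6%, 23.5% and 58.8% were called, beside 57.7%, 34.2% and 43.7% of all genes. FOXO1, a factor held out of the nucleus by PI3K signalling, averaged 705 ± 10.2 at BEZ235 max and 331 ± 16.2 with DMSO (SD, n = 4 each; log2 1.06, adjusted p = 6.35e-13), and rose in all 9 treatments. RRAGD, a GTPase that carries nutrient signals to mTOR complex 1, rose in 8 of them, by up to 0.82 at BEZ235 max. STK11, the kinase upstream of AMPK also known as LKB1, rose most at BKM120 IC90 (max) (0.79, adjusted p = 3.16e-09).

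NBR1 has other probe sets, and at BKM120 IC90 (max) 2 of them read much higher than in any other group; they were chosen after their values were seen. One gave 130.6, 120.4, 136.2 and 116.8 there, against 12.3, 14.7, 22.8 and 8.7 with DMSO, and 8.7 to 33.3 on all arrays of the other groups. The other gave 55, 58.7, 57.8 and 58, against 5.2, 6.5, 5.9 and 4.5 with DMSO, and 0.4 to 19.8 over the other groups, and was below the filter on dim genes. The differences were 2.23 and 1.77 on the log2 scale, beside 0.48 for the probe set that stands for NBR1 and 0.43 for the fourth, and no test was run on them.

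**Figure D5:**
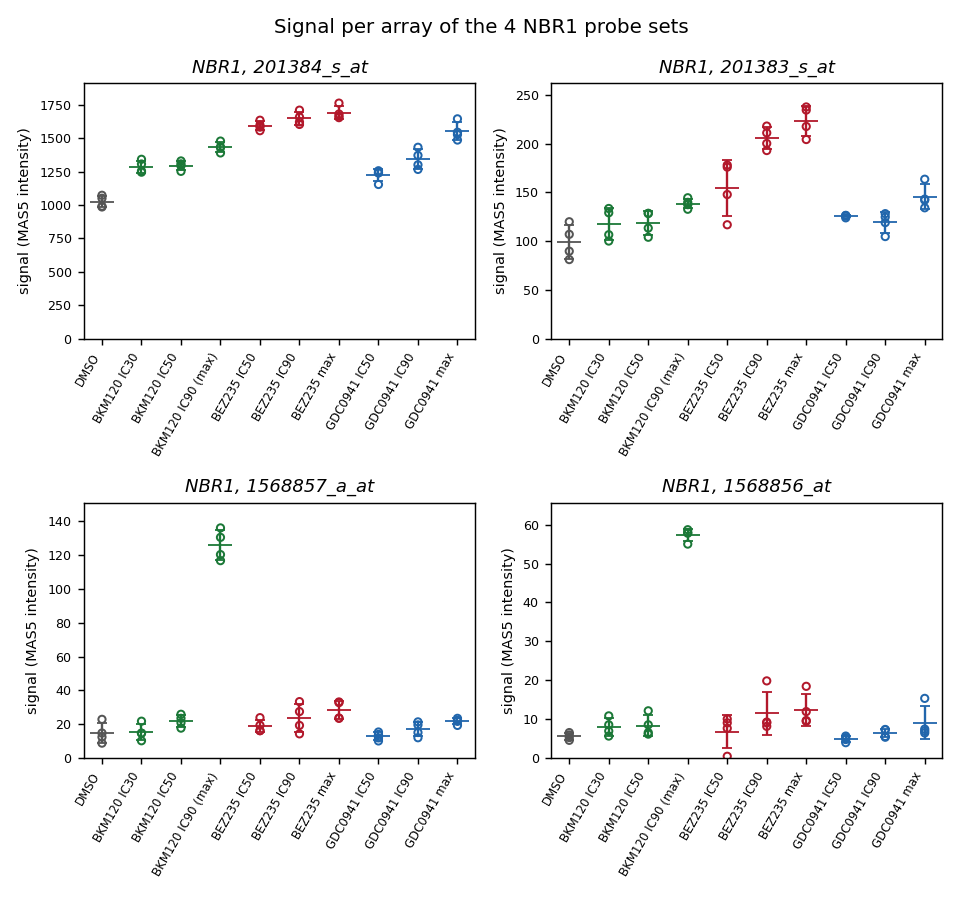
MAS5 signal on each array (points) for the 4 NBR1 probe sets, from DMSO at the low end through the levels of each compound. Only in the BKM120 IC90 (max) group do 2 probe sets, at 116.8 to 136.2 and 55 to 58.7, stand above all other arrays, whose highest values are 33.3 and 19.8.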

How the data were processed

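RNA from 40 A2058 cultures was profiled on 1-colour arrays with 54675 probe sets; per the labels' protocols, 50 ng of total RNA was amplified linearly and biotin-labelled. The deposited values were intensity values on a linear scale, made by the authors with MAS5 (per the submitters' processing notes; its version is not given in the sources used here). Every array had the same 2% trimmed mean, 150, so no further normalization was applied. Detection calls were left out.

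Of the probe sets 41097 carried a single symbol, 1801 several and 11777 none, and 41043 of the first kind matched a RefSeq gene. Each of 19775 genes was taken from its probe set with the highest mean log2(intensity + 16), and the 11865 above the 40th percentile of the mean were tested. Changes were fitted in limma 3.58.1 (R 4.3.3; lmFit and eBayes with trend) with a mean for each of 10 groups and 30 residual degrees of freedom, and p-values were adjusted by Benjamini and Hochberg over all genes tested. On simulated data for BEZ235 max against DMSO, with 200 of 11865 genes changed, the fit recovered 90% of log2 changes of 0.5 and 100% of changes of 1, with 4 false calls. BKM120 IC90 (max) was used as its IC90, and GCD0941 was read as GDC0941. Any of the 38 genes could be named; full statistics went to called genes without overlap, ranked by size, up to 8 in each direction at a highest level and 5 elsewhere, and genes of other lists by size, up to 4 a list. The 38 genes and the other lists were chosen with earlier results of these data known. Alternatives were quantile normalization, other pseudocounts and filters, other probe-set rules, the replicate number as a block, only the arrays of the groups compared, 39 arrays, and each replicate left out in turn.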

Additional observations from a re-analysis of the deposited data

Results flagged for a closer look

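Among 380 groups of 4 arrays, 24 had an array whose gap to its neighbour, as a share of the group's range, was above 0.829; chance alone flags about 1 in 20 groups, and 6.32% were found here. On 7 of the 24 the array was replicate 3 of BEZ235 IC50: ATG7 (0.961), ATG12 (0.937), TAX1BP1 (0.906), RB1CC1 (0.880), MAP1LC3B (0.879), ATG13 (0.846) and GABARAPL1 (0.834). With BEZ235 IC90 the gaps were 0.954 for ATG12 in replicate 1, 0.918 for AMBRA1, 0.841 for ATG4D and 0.912 for BNIP3L in replicate 2, 0.920 for MAP1LC3B in replicate 3, and 0.881 for ATG4A in replicate 4. At BEZ235 max it was 0.965 for ATG3 in replicate 2. With GDC0941 at IC50 the gaps were 0.863 for ATG14, 0.940 for ATG4C, 0.850 for NBR1, 0.850 for WDR45 and 0.882 for SQSTM1, and at IC90 0.844 for ATG14. With BKM120 they were 0.866 for ULK2 and 0.855 for ATG12 at IC50, and 0.863 for ATG101 and 0.861 for BECN1 at IC90 (max).

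The step from IC50 to IC90 differed between compounds by an interaction term in 23 cases, given as log2 differences. For BEZ235 minus BKM120 it was 0.65 for TP53INP2, 0.52 for OPTN, 0.52 for ATG12, 0.43 for BNIP3L, 0.33 for CALCOCO2, 0.26 for ATG3 and 0.23 for GABARAP, and -0.53 for ATG5, -0.40 for ATG13, -0.23 for FUNDC1 and -0.22 for WIPI2; without replicate 3 of BEZ235 IC50 the step was 0.40 for TP53INP2, 0.63 for OPTN, 0.24 for ATG12, 0.33 for BNIP3L, 0.48 for CALCOCO2, 0.24 for ATG3, 0.21 for GABARAP and -0.24 for ATG13, each still called, and -0.26 for ATG5, -0.15 for FUNDC1 and -0.17 for WIPI2, whose calls were lost. For GDC0941 minus BKM120 it was 0.57 for ULK2, 0.39 for BNIP3L, 0.26 for GABARAP and -0.68 for ULK1. For BEZ235 minus GDC0941 it was 0.77 for ULK1, 0.55 for ATG12, 0.54 for OPTN, 0.40 for CALCOCO2, 0.38 for ATG4B, 0.34 for ATG14 and 0.22 for ATG3, and -0.38 for ATG10. Without the same array it was 0.62 for ULK1, 0.27 for ATG12, 0.65 for OPTN, 0.55 for CALCOCO2, 0.36 for ATG4B, 0.27 for ATG14 and 0.20 for ATG3, each still called, and -0.30 for ATG10, whose call was lost.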

How the results depend on the processing

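Over 22 counts of called members, 19 of the recomputed counts moved by over 1.5 times. With only the arrays of the groups compared the count was 15 for BEZ235 IC50 against DMSO (23 in the main fit), 4 for BEZ235 against BKM120 at IC50 (17), 7 for BEZ235 against GDC0941 at IC50 (22), 2 for BKM120 against GDC0941 at IC50 (1) and 4 for BEZ235 max against IC50 (15). For BKM120 against GDC0941 at IC50, the count of 1 was 3 with 39 arrays and 0 with the mean over probe sets, no filter on dim genes, a pseudocount of 64 and the replicate block. For GDC0941 max against IC50 the count was 22 with 39 arrays (14).

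Leaving out each replicate in turn gave 21 to 25, 22 to 24 and 21 to 24 against DMSO for BEZ235 from IC50 to max, 11 to 12, 12 to 15 and 14 to 16 for BKM120, and 7 to 9, 12 to 16 and 20 to 22 for GDC0941. It gave 13 to 26 for BEZ235 against BKM120 at IC50 (26 without BEZ235 IC50 replicate 4), 17 to 23 for BEZ235 against GDC0941 at IC50, 0 to 1 for BKM120 against GDC0941 at IC50, 11 to 13, 13 to 16 and 6 to 10 for BEZ235 against BKM120, BEZ235 against GDC0941 and BKM120 against GDC0941 at IC90, and 13 to 16 at max. It gave 9 to 12, 10 to 19 and 12 to 14 for the highest against the lowest level of BKM120, BEZ235 and GDC0941, and 8 to 12, 3 to 6 and 6 to 11 for the step of BEZ235 against BKM120, GDC0941 against BKM120 and BEZ235 against GDC0941.

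Of the single-gene values recomputed, 5160 kept their direction and call, 432 kept the direction and lost the call, and 8 turned round. With the mean over probe sets ATG13 was -0.13 at BEZ235 max (adjusted p = 0.0451), CALCOCO2 -0.106 and -0.0597 for BEZ235 against BKM120 and GDC0941 at IC50, and NBR1 -0.65 for BEZ235 against BKM120 at IC90 (adjusted p = 7.43e-11). Without cross-hybridising designs ATG4B was 0.0202 at BEZ235 IC50 and 0.0055 for BEZ235 against GDC0941 at IC50, and RB1CC1 was -0.0567 for BEZ235 against BKM120 at IC50 and 0.0608 for BEZ235 max against IC50. The cause was not tested. With the replicate number as a block, BEZ235 against BKM120 at IC50 gave 16 calls and GDC0941 IC50 against DMSO 8. Samples share only a number: the deviations of 180 same-numbered pairs correlated at -0.32 to 0.31, with 25 above 0.1, and 8 of 40 arrays correlated best with an array of their own number. Dim genes such as ATG2A lie near the filter, and their changes are the least certain.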
